A study of Mus musculus with 21 samples.

Results

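Small nucleolar ribonucleoproteins (snoRNPs) are particles in which a small guide RNA pairs with ribosomal RNA and a fixed set of proteins modifies the paired base. Box C/D particles methylate the ribose and box H/ACA particles turn uridine into pseudouridine. Both kinds are built with the help of assembly factors, and ribosome production in dividing cells depends on them. The genes described here are 10 of the 41608 genes in the deposited count table and were chosen by name: Fbl, Nop56 and Nop58 of the box C/D core, Dkc1, Gar1, Nhp2 and Nop10 of the box H/ACA core, and the assembly factors Naf1, Ruvbl1 and Ruvbl2. Each has 1 row in the table, and all 10 passed the filter on low counts that left 12187 genes for testing.

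The cells were immortalized mouse embryonic fibroblasts (MEFs), and the series asks how the heat-shock factor HSF1 bears on transcription by c-MYC. RNA was sequenced from 4 groups of 3 libraries, all transfected for 2 days with 10 nM siRNA: siHsf1 LacZ (genotype label Hsf1 KD), siControl LacZ (Hsf1 WT), siHsf1 GCN5 (Hsf1 KD) and siControl GCN5 (Hsf1 WT). The LacZ groups stably express LacZ and the GCN5 groups stably express V5-GCN5, a tagged histone acetyltransferase whose mouse gene is Kat2a. The second assay was CUT&RUN with an antibody labelled c-Myc/N-Myc, which tethers a nuclease that releases DNA where the protein is bound. It was done in 2 Hsf1 CKO libraries (treated with 4-OHT for 7 days, which deletes Hsf1), in 2 Hsf1 WT libraries (ethanol for 7 days) and in 1 IgG library of both cells mixed. Not given in the sources used here were the promoter of the constructs, the Cre driver and whether a line is 1 clone. The labels call the RNA libraries triplicates without saying that they were separate cultures, so p-values measure the spread between these libraries. Another 4 of the 21 samples, parental MEFs given control or Myc siRNA at 100 nM, were not analysed here.

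Gene counts totalled 3693554 to 4274852 per library in the GCN5 line and 7224496 to 8162787 in the LacZ line, so depth and line cannot be told apart. Counts were tested with edgeR after scaling by the ERCC spike-in RNA of subgroup B, which lets the total of all genes move, and again after TMM scaling, which assumes that most genes do not change. A log2 fold change is called here when its Benjamini-Hochberg adjusted p is under 0.05. Levels per library are given as CPM (counts scaled to a common library size, here the TMM one). Hsf1 stood at 57.7, 55.5 and 47.9 CPM in siHsf1 LacZ against 129, 129 and 135 CPM in siControl LacZ libraries, and at 68.1, 74.7 and 73.2 CPM in siHsf1 GCN5 against 137, 121 and 138 CPM in siControl GCN5 libraries. Myc stood at 99.7, 89.6 and 88.3 CPM in siHsf1 LacZ and 131, 143 and 148 CPM in siControl LacZ libraries, and at 158, 144 and 139 CPM in siHsf1 GCN5 and 130, 108 and 125 CPM in siControl GCN5 libraries. Kat2a had 125, 118 and 130 CPM in siHsf1 LacZ libraries, against 216, 215 and 220 CPM in siControl LacZ libraries. It ranged over 245 to 253 CPM in the siHsf1 GCN5 libraries and 234 to 263 CPM in the siControl GCN5 libraries, and whether reads of the V5-GCN5 construct count towards it is not stated. The summed level of 9 fibroblast markers was 6541 to 10807 CPM, against at most 0.831 CPM for 4 epithelial and 1.41 CPM for 4 endothelial markers. Of the 9, 8 had at least 10 counts in a library of each group, and Thy1 did not pass the filter on low counts. The summed level of 4 haematopoietic markers was 51.6 to 59.5 CPM in siHsf1 LacZ and 26.7 to 27.2 CPM in siControl LacZ libraries, most of it Cd14, while Ptprc was at 0 in both groups. The fibroblast sum was also higher in siHsf1 LacZ (9368 to 10807 CPM) than in siControl LacZ libraries (6541 to 7247 CPM), and the part of either sum in the results that follow was not tested.

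Every one of the 10 snoRNP genes was lower after Hsf1 knockdown in the LacZ line, with spike-in and with TMM scaling. Their log2 fold changes ran from -1.59 to -1.02 with spike-in scaling (median -1.28, where all tested genes had a median of -0.35) and from -1.24 to -0.65 with TMM scaling (median -0.92, against 0.02 for all tested genes). The calls were 10 of 10 lower in both cases, where 6.03% of all tested genes were called lower with spike-in scaling and 19.5% with TMM scaling. No siHsf1 LacZ library overlapped a siControl LacZ library for any of the 10 in TMM-scaled CPM, and 23.5% of all tested genes showed that pattern in this direction. In these bulk libraries, a lower level in each cell and a lower level in a part of the cells cannot be told apart.

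The box C/D core includes Fbl (fibrillarin, the methyltransferase; GRCm38 chromosome 7, 28169748 to 28179269, plus strand). Fbl stood at 93.6, 110 and 95.7 CPM in siHsf1 LacZ libraries, against 186, 205 and 184 CPM in siControl LacZ libraries. The highest knockdown library thus lay well below the lowest control. Its log2 fold change with spike-in scaling was -1.33 ± 0.33 (SE; adjusted p by edgeR = 0.0032), and with TMM scaling it was -0.94 ± 0.07 (adjusted p = 1.8e-10).

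Nop56 and Nop58 are paired scaffold proteins that hold the guide RNA and fibrillarin together. Nop56 (chromosome 2, 130274367 to 130279313, plus strand) had 219, 230 and 202 CPM in siHsf1 LacZ libraries and 403, 442 and 398 CPM in siControl LacZ libraries. Nop58 (chromosome 1, 59684951 to 59711510, plus strand) had 149, 142 and 142 CPM in siHsf1 LacZ libraries and 269, 280 and 260 CPM in siControl LacZ libraries. Both sets of values were separated by a wide gap, and the change was alike in size for the partners: the log2 fold change with spike-in scaling was -1.30 ± 0.32 for Nop56 (edgeR adjusted p = 0.0036) and -1.26 ± 0.32 for Nop58 (adjusted p = 0.0054). Each of these genes carries 2 annotated snoRNA genes within it on the same strand, Snord57 and Snord110 in Nop56 and Snord70 and Snord11 in Nop58, and these snoRNA rows held 6 to 15 counts each over all 12 libraries.

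The box H/ACA core showed the lowest and the next lowest fold changes among the 10. Dkc1 (dyskerin, the pseudouridine synthase; chromosome X, 75095854 to 75109777, plus strand) stood at 63.5, 57.1 and 64.8 CPM in siHsf1 LacZ libraries, against 142, 151 and 145 CPM in siControl LacZ libraries. Scaled by the spike-in instead, Dkc1 had 84.6, 38.8 and 62.2 CPM in siHsf1 LacZ libraries and 235, 145 and 179 CPM in siControl LacZ libraries. The groups stayed apart on the spike-in scale as well, although the libraries of a group spread far more there. Its log2 fold change was -1.59 ± 0.33 (edgeR adjusted p = 0.0002) with spike-in and -1.24 ± 0.07 (adjusted p = 7.1e-13) with TMM scaling, and 0.894% and 0.697% of tested genes had a lower fold change on those scales.

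Nhp2, a small core protein that binds the guide RNA (chromosome 11, 51619773 to 51623714, plus strand), had 61.4, 71.8 and 60.2 CPM in siHsf1 LacZ libraries and 134, 162 and 134 CPM in siControl LacZ libraries. Each knockdown library lay far below each control. The log2 fold change of Nhp2 was -1.53 ± 0.33 (edgeR adjusted p = 0.00045) with spike-in and -1.15 ± 0.08 (adjusted p = 4.4e-11) with TMM scaling.

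Gar1 and Nop10 are the other small core proteins. Gar1 (chromosome 3, 129824912 to 129831396, minus strand) had 33.7, 26.2 and 29.7 CPM in siHsf1 LacZ libraries, against 49.1, 60.1 and 53.1 CPM in siControl LacZ libraries. Nop10 (chromosome 2, 112261926 to 112262898, plus strand) had 25, 34.1 and 32 CPM in siHsf1 LacZ libraries, against 51.7, 59.2 and 53.1 CPM in siControl LacZ libraries. The groups did not overlap for either gene, but their libraries spread more, relative to the mean, than those of Dkc1, at 181 to 475 counts per LacZ library. The log2 fold change with spike-in scaling was -1.17 ± 0.32 for Gar1 (edgeR adjusted p = 0.011) and -1.25 ± 0.32 for Nop10 (adjusted p = 0.0059).

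Among the assembly factors, Naf1 takes the place of GAR1 in the H/ACA particle while it is being built (chromosome 8, 66859957 to 66890564, plus strand). Naf1 stood at 19.2, 18.6 and 18.2 CPM in siHsf1 LacZ libraries and at 29.4, 29.3 and 29 CPM in siControl LacZ libraries. The values within each group were close, and the step between groups was the smallest of the 10 on the log2 scale. Its log2 fold change was -1.02 ± 0.33 (edgeR adjusted p = 0.034) with spike-in and -0.65 ± 0.12 (adjusted p = 0.00015) with TMM scaling, and the spike-in call was lost when genes were not filtered on low counts.

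Ruvbl1 and Ruvbl2 encode the partner ATPases that, within a chaperone complex, load core proteins of both particle kinds and that also serve in chromatin remodelling complexes. Ruvbl1 (chromosome 6, 88465423 to 88497566, plus strand) had 56.9, 61.7 and 58.9 CPM in siHsf1 LacZ libraries and 103, 107 and 91.4 CPM in siControl LacZ libraries. Ruvbl2 (chromosome 7, 45421896 to 45435332, minus strand) had 68.5, 66.5 and 68.9 CPM in siHsf1 LacZ libraries and 132, 134 and 122 CPM in siControl LacZ libraries. Neither gene's groups overlapped. The log2 fold change with spike-in scaling was -1.14 ± 0.32 for Ruvbl1 (edgeR adjusted p = 0.014) and -1.30 ± 0.32 for Ruvbl2 (adjusted p = 0.0042). Ruvbl2 overlaps Gys1 by 494 bases at their starts, and Nop56, Dkc1 and Nhp2 overlap another gene by 5, 45 and 42 bases at their ends, all on the opposite strand. Ruvbl1 overlaps the protein-coding gene LOC108169152 by 4777 bases on the same strand. That gene had 37 counts over all 12 libraries. For the strand setting of the counting, none is given in the sources used here.

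The number of calls with spike-in scaling depended on single libraries, for the 10 and for all genes, and with TMM scaling it hardly did. Without siHsf1 LacZ replicate 3 the spike-in count was 2 of 10, where 95 of 11907 tested genes were called lower. Without siControl LacZ replicate 1 it was 4 of 10, where 120 of 11939 genes were called lower. When the fit held the LacZ line alone, 2 of 10 were called, where 72 of 12307 genes were called lower. With all 12 libraries 735 of 12187 genes were called lower. When 1 library was left out, the 10 log2 fold changes with spike-in scaling stayed between -1.88 and -0.8. The ratio of spike-in to TMM library size was 0.75, 1.47 and 1.04 in siHsf1 LacZ libraries and 0.607, 1.04 and 0.81 in siControl LacZ libraries, so the spike-in moved all genes of a library together. With TMM scaling 10 of 10 stayed called without any 1 of these 6 libraries.

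**Figure D1:**
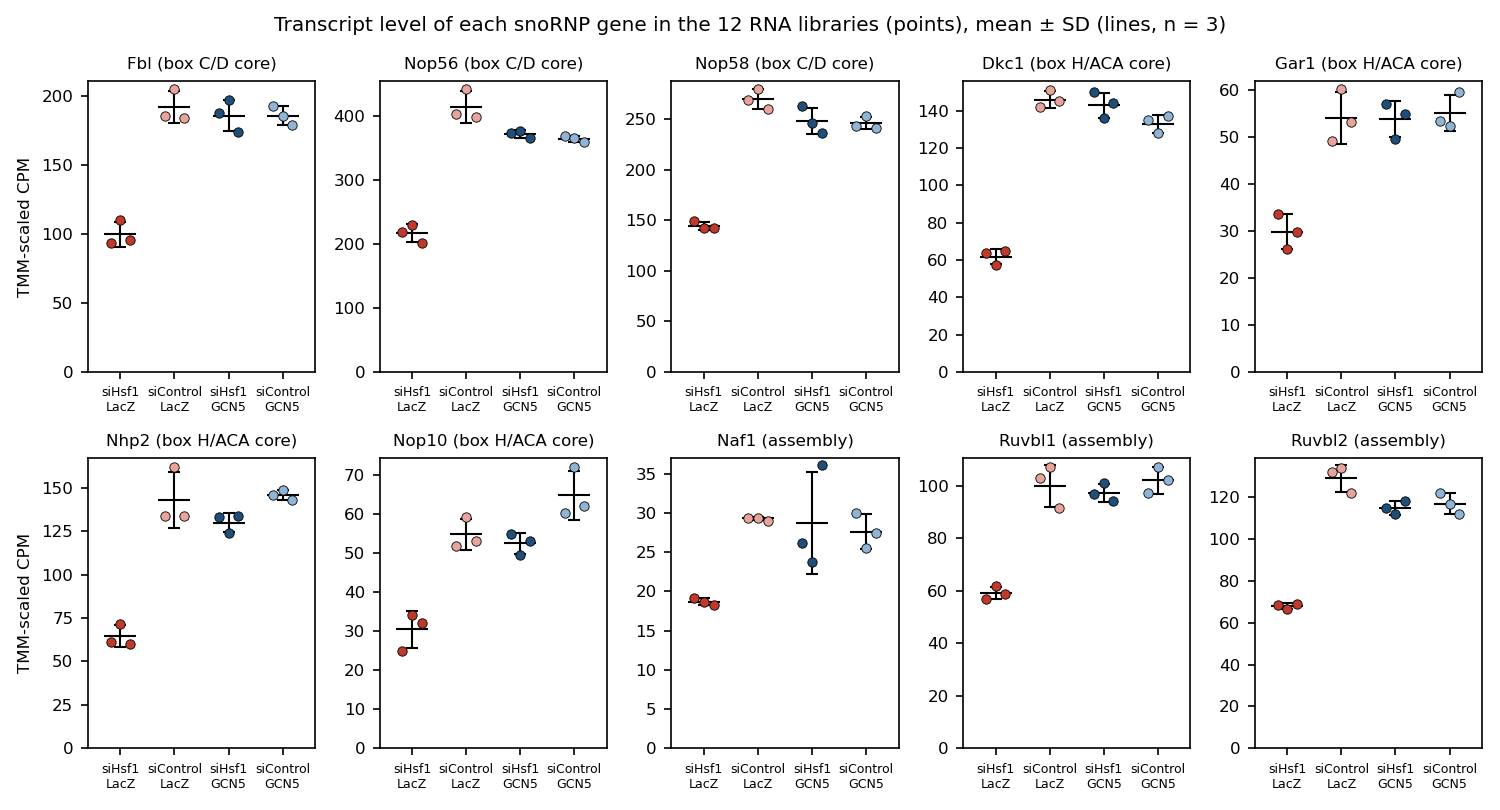
TMM-scaled CPM (vertical axis, from 0) of the 10 snoRNP genes in the 4 groups (horizontal axis), 1 point per library with the mean and SD of 3 libraries as lines. In each panel the 3 siHsf1 LacZ libraries lie below all other libraries, as for Dkc1 with 57.1 to 64.8 CPM in siHsf1 LacZ and 142 to 151 CPM in siControl LacZ libraries.

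In the line that expresses GCN5, no snoRNP gene passed the test after Hsf1 knockdown. edgeR called 0 of 10 lower with spike-in scaling (0 at an unadjusted p under 0.05) and 0 of 10 with TMM scaling (1 at an unadjusted p under 0.05), and DESeq2 called 0 of 10 with either set of size factors. Of the 12187 tested genes, 111 with spike-in and 1177 with TMM scaling had an unadjusted p under 0.05 by edgeR. The background of edgeR calls in this comparison was low too, with 0.00821% of tested genes called lower and 0.0328% called higher with spike-in scaling, and 0.0985% lower and 0.0656% higher with TMM scaling. DESeq2 called 0 of all 12187 tested genes in either direction with spike-in size factors. With its own size factors it called 23 lower and 12 higher. Hsf1, the gene knocked down, was itself not called with spike-in scaling, at a log2 fold change of -0.93 ± 0.32 (edgeR unadjusted p = 0.0042). A fall of that size thus went uncalled on that scale. With TMM scaling Hsf1 was called lower, at -0.88 ± 0.08 (edgeR adjusted p = 8.3e-07). Over the 10 genes the log2 fold changes ran from -0.32 to 0.07 with spike-in and from -0.30 to 0.11 with TMM scaling. The 95% intervals reached from -0.96 to 0.69 at the widest with spike-in scaling and from -0.52 to 0.32 with TMM scaling. These are the outermost bounds over the 10 genes, and single genes had narrower ones, such as -0.09 to 0.15 for Nop56 with TMM scaling.

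Dkc1, which had the lowest fold change of the 10 in the LacZ line, stood at 150, 136 and 144 CPM in siHsf1 GCN5 libraries and at 135, 128 and 137 CPM in siControl GCN5 libraries. The groups overlapped, with a log2 fold change of 0.11 ± 0.07 (edgeR adjusted p = 0.61) with TMM scaling. Fbl had 188, 197 and 174 CPM in siHsf1 GCN5 libraries and 193, 186 and 179 CPM in siControl GCN5 libraries, an overlap from end to end. Ruvbl2 had 115, 112 and 118 CPM in siHsf1 GCN5 libraries and 122, 117 and 112 CPM in siControl GCN5 libraries, which also overlapped.

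Nop10 was the lowest of the 10 in this comparison. It had 54.8, 49.4 and 53 CPM in siHsf1 GCN5 libraries and 60.3, 71.9 and 62 CPM in siControl GCN5 libraries. These groups did not overlap, but the log2 fold change of -0.30 ± 0.11 with TMM scaling did not pass (edgeR adjusted p = 0.4). Nhp2 was the other gene without overlap, at 133, 124 and 134 CPM in siHsf1 GCN5 libraries and 146, 149 and 143 CPM in siControl GCN5 libraries. Its log2 fold change was -0.16 ± 0.08 (adjusted p = 0.53), and 9.71% of all tested genes had groups that did not overlap in this direction. Naf1 was the least even, with 26.2, 23.8 and 36.1 CPM in siHsf1 GCN5 libraries and 30, 25.5 and 27.4 CPM in siControl GCN5 libraries, from 94 to 154 counts per library.

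The difference between the lines in the response to knockdown was tested as an interaction, the log2 fold change of siHsf1 in the GCN5 line minus that in the LacZ line. It was above 0 for all 10 genes on both scales, at 0.93 to 1.66 with spike-in scaling (median 1.24, all tested genes 0.32) and 0.54 to 1.35 with TMM scaling (median 0.91, all tested genes -0.02). edgeR called 0 of 10 with spike-in scaling, all 10 of them at an unadjusted p under 0.05, and 10 of 10 with TMM scaling. With spike-in scaling, 924 of the 12187 tested genes had an unadjusted p under 0.05 in either direction. Of all tested genes 0.172% were called in this direction with spike-in scaling and 11% with TMM scaling. DESeq2 called 1 of 10 with the spike-in size factors, where 11 of 12187 tested genes were called in this direction. With its own size factors it called 10 of 10, where 1154 were. With TMM scaling, the log2 fold change of Hsf1 itself was -1.28 ± 0.08 in the LacZ line and -0.88 ± 0.08 in the GCN5 line. Its interaction was 0.41 ± 0.11 (edgeR adjusted p = 0.011) with TMM and 0.72 ± 0.45 (adjusted p = 0.76) with spike-in scaling. The part of this weaker knockdown in the differences above was not tested.

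Dkc1 had the largest interaction, at 1.66 ± 0.46 on the log2 scale with spike-in scaling (edgeR adjusted p = 0.06) and 1.35 ± 0.10 with TMM scaling (adjusted p = 4.3e-10). Nop10 had the smallest, at 0.93 ± 0.45 (adjusted p = 0.64) with spike-in and 0.54 ± 0.15 (adjusted p = 0.011) with TMM scaling. Without siHsf1 LacZ replicate 1 the spike-in count was 7 of 10, and without siControl LacZ replicate 2 it was 1 of 10. Without any 1 of the other libraries it was 0. How many of all genes were called in these fits is not given here.

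Between the lines under Hsf1 knockdown, the snoRNP genes were higher in the GCN5 line by an amount that passed for all 10 genes with TMM scaling and for Dkc1 and Nhp2 with spike-in scaling. Dkc1 stood at 150, 136 and 144 CPM in siHsf1 GCN5 against 63.5, 57.1 and 64.8 CPM in siHsf1 LacZ libraries, a log2 fold change of 1.14 ± 0.32 (edgeR adjusted p = 0.013) with spike-in and 1.21 ± 0.07 (adjusted p = 1e-12) with TMM scaling. Nhp2 followed with 0.97 ± 0.32 (adjusted p = 0.049) and 1.01 ± 0.08 (adjusted p = 5.8e-10). With spike-in scaling 2 of 10 were called higher where 1.82% of tested genes were, and with TMM scaling 10 of 10 where 22.3% were. The other 8 genes lay between 0.54 and 0.87 with spike-in scaling. The spike-in count was 0 without siHsf1 LacZ replicate 2 or 3 or without siHsf1 GCN5 replicate 1 or 2. It was 1 without siHsf1 GCN5 replicate 3, and 7 without siHsf1 LacZ replicate 1. The calls over all genes in these fits are not given here.

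Between the lines under control siRNA no snoRNP gene passed the test. The log2 fold changes ran from -0.57 to -0.15 with spike-in scaling (median -0.45, where all tested genes had -0.40) and from -0.19 to 0.24 with TMM scaling (median -0.06), and the 95% intervals with spike-in scaling reached from -1.19 to 0.47 at the widest. edgeR called 0 of 10 on either scale, with 0 at an unadjusted p under 0.05 with spike-in and 4 with TMM scaling, and DESeq2 called 0 with either set of size factors. Of the 12187 tested genes, 1424 with spike-in and 2638 with TMM scaling had an unadjusted p under 0.05 by edgeR. Of tested genes edgeR called 0.96% lower and 0.542% higher with spike-in scaling, and 4.15% lower and 5.45% higher with TMM scaling. DESeq2 called 87 lower and 53 higher with spike-in size factors, and 359 lower and 518 higher with its own. Nop56 came nearest to a call, with 369, 365 and 359 CPM in siControl GCN5 libraries and 403, 442 and 398 CPM in siControl LacZ libraries, groups that did not overlap, and a log2 fold change of -0.19 ± 0.06 (adjusted p = 0.05, just over the threshold) with TMM scaling. Nop10 stood out on the other side, at 60.3, 71.9 and 62 CPM in siControl GCN5 libraries and 51.7, 59.2 and 53.1 CPM in siControl LacZ libraries, with 0.24 ± 0.10 (adjusted p = 0.16). With TMM scaling, 4 of 10 genes had no overlap in the lower direction, where 12.1% of tested genes had none, and 1 in the higher direction, where 13.6% had none.

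When the knockdown in the GCN5 line was set against the control in the LacZ line, 0 of 10 were called with either scaling by edgeR (0 and 2 at an unadjusted p under 0.05 with spike-in and TMM scaling) and 0 by DESeq2 with either set of size factors. Of the 12187 tested genes, 2103 with spike-in and 3394 with TMM scaling had an unadjusted p under 0.05 by edgeR. The edgeR background was 1.34% called lower and 0.566% called higher with spike-in scaling, and 7.12% lower and 7.97% higher with TMM scaling. Over all tested genes DESeq2 called 159 lower and 61 higher with spike-in size factors, and 610 lower and 738 higher with its own. The log2 fold changes ran from -0.61 to -0.42 with spike-in scaling, where all tested genes had a median of -0.43, and from -0.17 to -0.01 with TMM scaling. The last 3 comparisons share libraries with the knockdown comparisons, so they are no separate evidence.

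**Figure D2:**
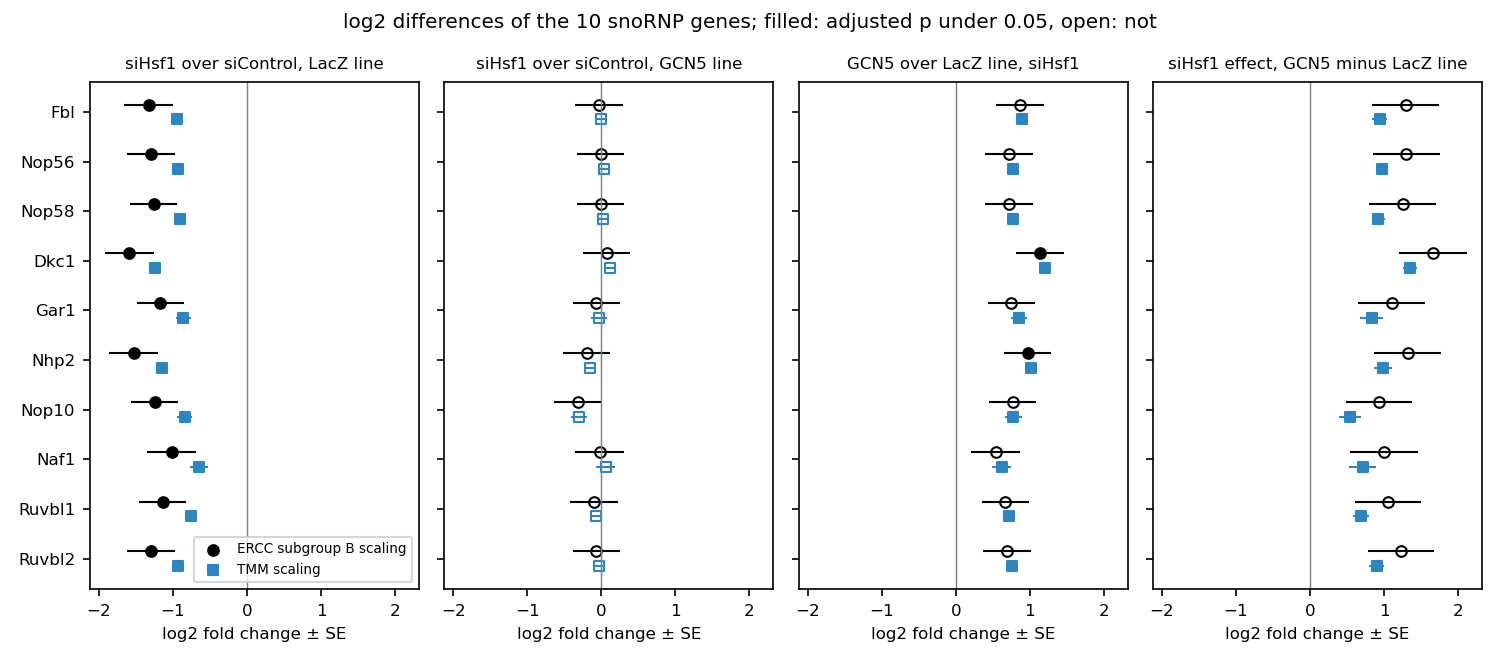
log2 difference with its SE (horizontal axis) of the 10 genes (vertical axis) for siHsf1 over siControl in each line, for the GCN5 over the LacZ line under siHsf1, and for the siHsf1 effect in the GCN5 minus that in the LacZ line. Circles are spike-in scaling and squares TMM scaling, filled where the adjusted p is under 0.05. All genes lie left of 0 in the LacZ line (TMM -1.24 to -0.65) and around 0 in the GCN5 line (TMM -0.30 to 0.11).

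Compared per length of transcript, the 10 genes covered a wide range of levels. The authors' FPKM in siControl LacZ libraries averaged 163 ± 10 for Fbl, 156 ± 9.5 for Nop56, 140 ± 16.3 for Nhp2, 123 ± 4.77 for Nop58, 72.8 ± 5.42 for Nop10, 59.6 ± 4.83 for Ruvbl1, 57.5 ± 2.89 for Ruvbl2, 49 ± 1.58 for Dkc1, 41 ± 4.27 for Gar1 and 8.58 ± 0.0762 for Naf1 (SD, n = 3). In that order the libraries of neighbours overlapped for Fbl with Nop56, Nop56 with Nhp2, and Ruvbl1 with Ruvbl2, and every other pair of neighbours was apart. Fbl was 19 ± 1.09 times the level of Naf1 (SD over 3 libraries).

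Within the H/ACA core the proteins work in a fixed complex, yet the FPKM of Nhp2 and Nop10 was above that of Dkc1 and Gar1 in all 4 groups. In siHsf1 LacZ libraries the order changed at 2 places: Nop58 (65.2 ± 1.93 FPKM) stood above Nhp2 (62.4 ± 6.17 FPKM) and Gar1 (22.4 ± 2.83 FPKM) above Dkc1 (20.5 ± 1.36 FPKM), with overlapping libraries in both cases. In siControl LacZ libraries each of these pairs stood in the opposite order and apart. The order also differed in siControl GCN5 libraries, where Nhp2 (142 ± 2.7 FPKM) stood above Nop56 (137 ± 1.84 FPKM) with libraries apart. Between these genes the order in siControl LacZ libraries was the opposite, with overlapping libraries. Fbl had the highest and Naf1 the lowest mean FPKM in each of the 4 groups.

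**Figure D3:**
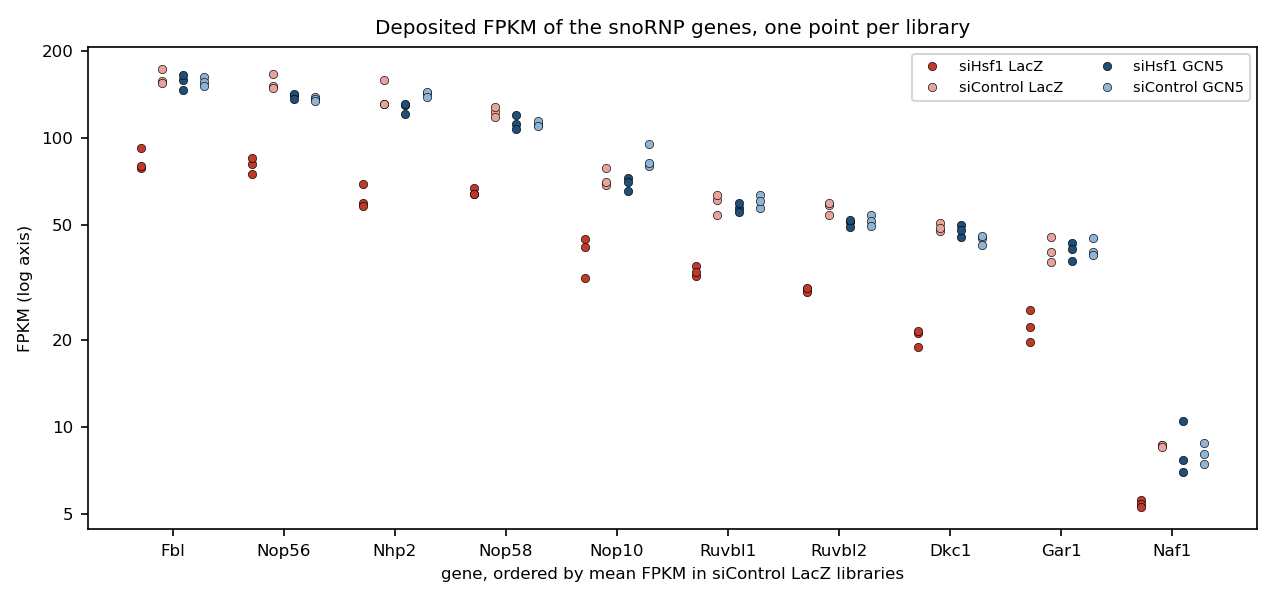
FPKM as deposited (vertical log axis) of the 10 genes, ordered by their mean in siControl LacZ libraries (horizontal axis), 1 point per library and 1 colour per group. The siHsf1 LacZ points are the lowest for every gene, and Naf1, at 5.26 to 5.57 FPKM in siHsf1 LacZ and 8.49 to 8.63 FPKM in siControl LacZ libraries, lies apart from the other 9.

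The 10 profiles followed each other over the 12 libraries. Pearson's r between a gene and the mean of the other 9 (log2 CPM, TMM scaling, n = 12 libraries) ran from 0.874 for Naf1 and 0.917 for Nop10 to 0.988 for Nhp2; the libraries fall into the 3 siHsf1 LacZ libraries and the rest, so r mostly describes that split. The 5 protein-coding genes outside the group with the profile most like the mean of the 10 were Rcl1 (r = 0.994), Aurka (0.992), Rps23 (0.992), Eif3b (0.992) and Rpl3 (0.992), each over 12 libraries. Rcl1 takes part in processing of ribosomal RNA, Rps23 and Rpl3 are ribosomal proteins, Eif3b is a subunit of a translation initiation factor and Aurka is a mitotic kinase. Ribosomal protein genes have many near-identical copies in the genome, which leaves the counts of Rps23 and Rpl3 uncertain. Rcl1 had a log2 fold change of -1.52 in the LacZ line and -0.07 in the GCN5 line with spike-in scaling.

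Another 14 genes of snoRNP structure, assembly and trafficking were examined in the same fits. In the LacZ line 3 of 14 were called lower with spike-in scaling and 6 lower and 1 higher with TMM scaling. Of all tested genes 0.993% were called higher with spike-in scaling and 21.1% with TMM scaling, beside the shares called lower given above. The median log2 fold change of the 14 was -0.49 and -0.07 on those scales, against -0.35 and 0.02 for all tested genes. Nolc1, a nucleolar protein that binds both particle kinds, had 141, 155 and 154 CPM in siHsf1 LacZ libraries and 284, 303 and 312 CPM in siControl LacZ libraries. Its log2 fold change of -1.38 ± 0.32 (edgeR adjusted p = 0.0019) with spike-in scaling lay within the range of the 10.

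Rrp9, a protein of the U3 particle, fell by 1.17 ± 0.32 on the log2 scale (edgeR adjusted p = 0.011) with spike-in scaling. Snu13, the protein that first binds box C/D RNA and is also part of the spliceosome, fell by 0.96 ± 0.32 (adjusted p = 0.044). Another 3 genes passed with TMM scaling alone: Tcof1 (treacle, of the nucleolar transcription machinery) at -0.46 ± 0.07 (adjusted p = 2.2e-05), Shq1 (a dyskerin chaperone) at -0.49 ± 0.15 (adjusted p = 0.0095) and Rpap3 (of the chaperone complex with the RUVBL proteins) at -0.24 ± 0.07 (adjusted p = 0.012). Tgs1, which modifies the cap of some snoRNAs, was the gene called higher with TMM scaling, at 0.25 ± 0.09 (adjusted p = 0.033), and had -0.15 ± 0.32 with spike-in scaling, so its sign depended on the scaling. The assembly factors Nufip1, Znhit3, Znhit6 and Pih1d1 did not pass on either scale, nor did Wrap53, Coil and Parn. In the GCN5 line 0 of 14 were called on either scale, with 0 and 1 at an unadjusted p under 0.05 with spike-in and TMM scaling. Of the 12187 tested genes 111 and 1177 were at that threshold.

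RUVBL1 and RUVBL2 also sit in the INO80, SRCAP and TIP60 chromatin complexes, and 25 other subunits of these were examined. With spike-in scaling 0 of 25 were called after knockdown in the LacZ line (edgeR, with 3 at an unadjusted p under 0.05), where 6.03% of tested genes were called lower and 0.993% higher. At that unadjusted threshold there were 2700 of the 12187 tested genes. The median log2 fold change of the 25 was -0.33, against -0.35 for all tested genes. With TMM scaling 4 were lower and 2 higher, where 19.5% of tested genes were lower and 21.1% higher, with a median of 0.06. Uchl5, a deubiquitinase of INO80, had the smallest p with spike-in scaling (log2 fold change -0.81 ± 0.32, adjusted p = 0.1), and Actr5, an actin-related INO80 subunit, the next (-0.73 ± 0.36, adjusted p = 0.21). The log2 fold changes of Ruvbl1 and Ruvbl2 with spike-in scaling were below those of all 25, of which the lowest was -0.81.

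The guide RNAs themselves were hardly sampled. Of 123 rows of small nucleolar and Cajal body RNAs, 102 had at least 1 count and 15 passed the filter, 4 box C/D and 11 box H/ACA rows. The summed level of the 38 box H/ACA rows was 51.2 to 64 CPM in siHsf1 LacZ and 94.6 to 102 CPM in siControl LacZ libraries, and 83.3 to 101 CPM in siHsf1 GCN5 and 82.5 to 99.2 CPM in siControl GCN5 libraries. The summed level of the 76 box C/D rows was 17.9 to 23.5 CPM in siHsf1 LacZ and 29.8 to 40.5 CPM in siControl LacZ libraries, and 27.9 to 29.6 CPM in siHsf1 GCN5 and 26 to 32.3 CPM in siControl GCN5 libraries. Both sums were lowest in the siHsf1 LacZ libraries, and the LacZ groups did not overlap. Most of the H/ACA sum in the LacZ line came from 1 row, Snora2b, with a mean of 31.7 of 58.4 CPM in siHsf1 LacZ and 54.8 of 97.6 CPM in siControl LacZ libraries.

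Of the 15 tested rows, Snora2b (log2 fold change -1.14 ± 0.32, edgeR adjusted p = 0.014), Snora65 (-1.93 ± 0.40, adjusted p = 0.000304) and Snord22 (-1.49 ± 0.44, adjusted p = 0.019) were called lower in siHsf1 than in siControl LacZ libraries with spike-in scaling, and the same 3 with TMM scaling. Of all tested genes 6.03% were called lower with spike-in and 19.5% with TMM scaling, so the TMM count of 3 of 15 is near its background. These rows were singled out because they passed. In the GCN5 line 0 of 15 were called on either scale. Most guide RNAs lie inside introns of other genes, and reads of an unspliced host cannot be told apart from the guide RNA in such counts. Terc, the telomerase RNA, which also carries an H/ACA domain, had at most 3 counts in a library.

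Peaks of c-MYC were listed within 1000 bases of a start of 10 of 10 snoRNP genes in WT cells and of 8 of 10 in CKO cells. The 2 without a CKO peak were the assembly factors Naf1 and Ruvbl1. Among 10505 genes with at least 10 counts in every library, 40.2% had a CKO peak and 82.4% a WT peak at a start, so the members' WT count is not far above the background. The lists differ in size, with 6386 CKO peaks covering 11.54 Mb and 220037 WT peaks covering 509.9 Mb, and with 1 list per genotype there is no replicate error and no test.

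All 8 genes with peaks in both lists had peaks that overlapped by at least 68.1% of the shorter one. Heights, the highest signal in a peak as the authors give it, are stated here in thousandths of their unit. Nop58 had the highest WT peak of the 10, at 13.7 in CKO and 25.32 in WT cells, followed by Fbl at 8.654 in CKO and 18.48 in WT cells. At Nhp2 the heights were close, at 7.572 in CKO and 8.213 in WT cells, as at Gar1 with 11.54 in CKO and 13 in WT cells. The CKO height was below the WT height for all 8, with a ratio of 0.468 to 0.922 (median 0.651), where the median over 4120 genes with peaks in both lists was 0.527.

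Those ratios follow the scale of the lists in part. All heights in a list were whole multiples of a step (within 0.01 step), 0.0003606 in the CKO list and 0.0006845 in the WT list, a ratio of 0.527. Counted in steps, the height was 21 in CKO and 12 in WT cells at Nhp2, 32 in CKO and 19 in WT cells at Gar1, 20 in CKO and 14 in WT cells at Dkc1, and 24 in CKO and 27 in WT cells at Fbl. In steps, 6 of the 8 genes were higher in CKO cells, and the median ratio was 1.23 over the 8 and 1 over the 4120 genes. Whether the authors' unit or the step compares better between genotypes was not tested.

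Fbl and Naf1 had 2 WT peaks each within 1000 bases of the start, and the tallest peak at a gene is the one described here and above. Each peak so described covered an annotated start of its gene. In WT cells the highest stretch was centred 82 bases downstream of the start at Nhp2, 88 at Fbl, 131 at Nop58 and 212 at Ruvbl1, and 862 at Naf1. In CKO cells it was 87 bases downstream at Nhp2 and 192 at Fbl, and at Nop56 it lay 644 bases upstream, against 298 downstream in WT cells. The Nop56 peak was the broadest of the 10 in either list, 3581 bases in CKO and 5209 in WT cells. The Ruvbl2 peak covers the start of Gys1 as well, 493 bases away on the other strand, and cannot be assigned to either gene. In CKO cells the Ruvbl2 peak begins 233 bases downstream of the gene start and covers another annotated start of Ruvbl2. The Fbl peaks likewise cover the start of a long non-coding RNA gene, LOC105242891, 77 bases away on the other strand. That gene had 17 counts over all 12 libraries, and the peaks cannot be assigned to either gene.

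**Figure D4:**
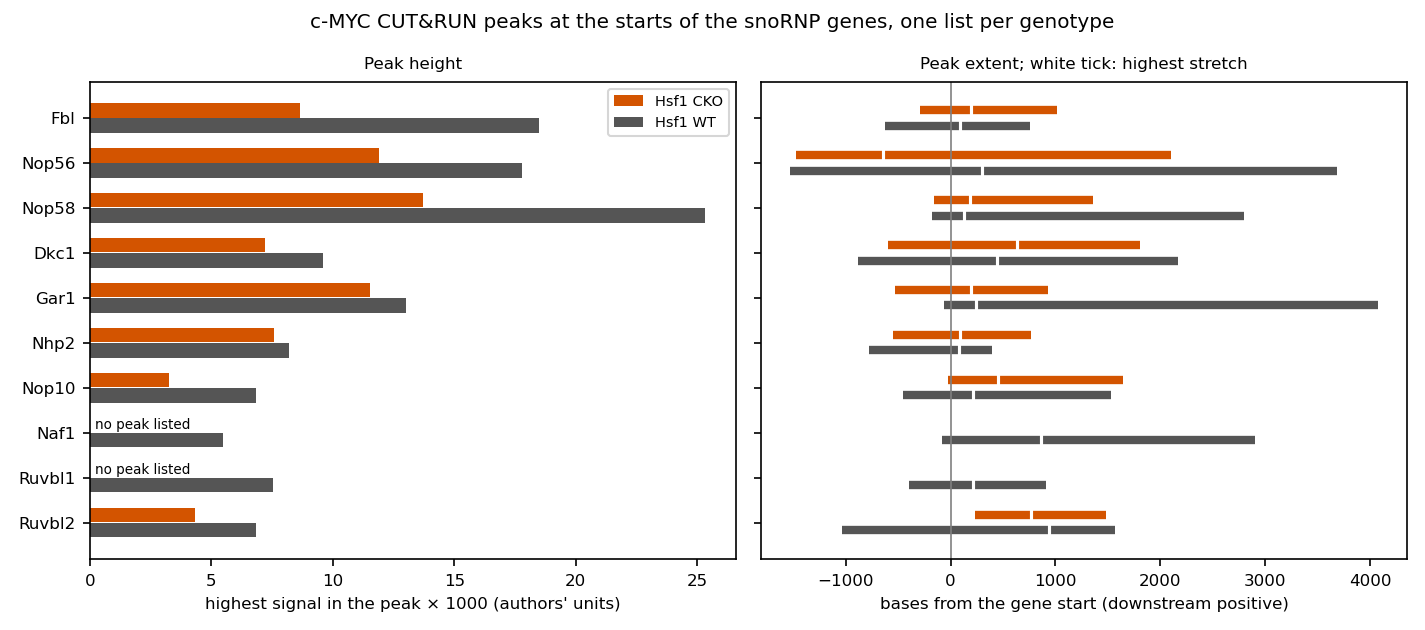
The tallest c-MYC peak at the start of each of the 10 genes (vertical axis), CKO above WT. The left panel gives peak height in thousandths of the authors' unit and the right panel the extent of the peak in bases from the gene start, with a white tick at the highest stretch. Heights are 13.7 in CKO and 25.32 in WT cells at Nop58, and no CKO peak is listed at Naf1 or Ruvbl1.

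Promoters of 8 of the 10 genes were in the RefSeq table (GRCm38.p6; 250 bases before to 50 after the start) and were searched on both strands. The c-MYC E-box CACGTG was in 0 of 8, where 7.15% of 32851 promoters hold it, and the heat-shock element (GAA, TTC and GAA, each 2 bases apart) was in 0 of 8, where 0.603% hold it. The variant E-box CACGCG was in 3 of 8, where 9.27% hold it, and its sites lie in the first 50 transcribed bases of Nhp2, Nop10 and Ruvbl1. No match to CACGTG overlapped them. They are shown because they lie under or beside the c-MYC peaks, with the motif in capitals (CGCGTG is the same motif on the other strand), each read on the plus strand, which is the strand of the gene.

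Nhp2, chr11:51619773-51619802: ggcCGCGTGgttcctctatgccgggacgga
Nop10, chr2:112261938-112261967: aggttgttggcgCACGCGattgaagcggcg
Ruvbl1, chr6:88465429-88465458: aggagagcggcctagtaacggcCGCGTGgt

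Counted from the start in the promoter table, the motif covers bases 4 to 9 in Nhp2, 25 to 30 in Nop10 and 43 to 48 in Ruvbl1. For Ruvbl1 that start is 88465409, upstream of the gene start given above, from which the peak distance was counted. Of these genes Ruvbl1 had a WT peak and no CKO peak, and Nhp2 and Nop10 had peaks in both lists. Dkc1, with a lower fold change than Nhp2, held none of the 3 motifs in this window. The part of these motifs in the peaks or in the fold changes was not tested.

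The promoters of the genes also differed in base composition. The 250 bases before the starts of Dkc1 and Nhp2 are shown because these genes had the lowest fold changes and a c-MYC peak in both lists, with each CG pair in capitals, on the plus strand, the strand of both genes.

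Dkc1, chrX:75095604-75095853: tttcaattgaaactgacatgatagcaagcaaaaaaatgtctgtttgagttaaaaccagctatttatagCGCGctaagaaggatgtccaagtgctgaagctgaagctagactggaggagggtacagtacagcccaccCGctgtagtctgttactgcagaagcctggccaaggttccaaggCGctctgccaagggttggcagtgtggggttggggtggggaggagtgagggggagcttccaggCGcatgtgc
Nhp2, chr11:51619523-51619772: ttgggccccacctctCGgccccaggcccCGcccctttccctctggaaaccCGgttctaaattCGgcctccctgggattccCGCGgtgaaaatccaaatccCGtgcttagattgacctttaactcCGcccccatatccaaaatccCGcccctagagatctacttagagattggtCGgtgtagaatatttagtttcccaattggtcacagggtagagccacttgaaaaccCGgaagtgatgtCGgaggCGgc

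These stretches hold 5 CG pairs at Dkc1 and 13 at Nhp2. Over the whole 300 bases, Nop56 had 32 CG pairs, Gar1 30, Nhp2 18, Nop58 17, Ruvbl2 12, Ruvbl1 11, Dkc1 9 and Nop10 7, where the median promoter of the table had 7. The G and C content ran from 45.3% at Nop58 to 66% at Nop56, with a median of 52.7% over all promoters. The part of CG content in the c-MYC peaks or in the fold changes was not tested.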

How the data were processed

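RNA was measured in 12 libraries of 4 groups of 3, and c-MYC binding by CUT&RUN in 5 libraries. The authors deposited whole-number counts per gene, with no normalization, for 41608 genes and 92 ERCC transcripts. The authors also deposited FPKM, whose denominators lie between 0.984 and 1.05 times the summed counts; FPKM served only to compare levels between genes. The deposited peak lists, 1 per genotype, give the signal summed over the peak and, as a height score, the highest signal in it; whether replicates were pooled is not stated. Per the submitters' processing notes, HISAT2, Bowtie2, SEACR and DESeq2 were used on GRCm38 or mm10; for versions and the counting program, none is given in the sources used here. Per the labels' protocols, ERCC mix 1 went to siControl and mix 2 to siHsf1 samples, while every library had 1.36 to 1.54 times as many counts of subgroup A as of subgroup B.

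Counts were tested with edgeR 4.0.16 in R 4.3.3 (robust quasi-likelihood, 4 group means, 8 residual degrees of freedom, two-sided, Benjamini-Hochberg adjustment over all 12187 genes kept by filterByExpr with a minimum count of 10). Libraries were scaled by the sum of the 23 ERCC subgroup B transcripts, listed from memory, and again by TMM; the biological coefficient of variation was 0.274 and 0.089. The 95% intervals are the log2 fold change ± 1.96 SE, a normal multiplier that can make them narrower than the edgeR test implies. For Nhp2 in the GCN5 line with TMM scaling the interval was -0.33 to -0.00, beside an unadjusted p of 0.061 by edgeR. The code was tested on simulated data. Alternatives were DESeq2 1.42.0 with its own and with spike-in size factors, all 92 ERCC transcripts, no filter, a replicate block, the compared groups alone, and leaving out each library. Peaks were matched to RefSeq starts (GRCm38.p6) within 1000 bases. FPKM ± values are SD.

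The members and the gene lists were chosen with earlier results of these data known. The genes named are the 10, any of the 14 other snoRNP genes, the 2 chromatin complex subunits with the smallest p after knockdown in the LacZ line, the 5 protein-coding genes with the highest r to the mean profile, and Hsf1, Kat2a and Myc as checks of the labels.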

Additional observations from a re-analysis of the deposited data

Results flagged for a closer look

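The response to Hsf1 knockdown differed between the lines for all 10 snoRNP genes with TMM scaling, by edgeR's test of the interaction at an adjusted p under 0.05. The log2 fold change of siHsf1 over siControl in the GCN5 line minus that in the LacZ line was 0.94 for Fbl, 0.97 for Nop56, 0.92 for Nop58, 1.35 for Dkc1, 0.83 for Gar1, 0.99 for Nhp2, 0.54 for Nop10, 0.71 for Naf1, 0.69 for Ruvbl1 and 0.90 for Ruvbl2. With spike-in scaling the same differences were 0.93 to 1.66. None passed in the fit of the 4 group means, the lowest adjusted p by edgeR being 0.06 for Dkc1. Hsf1 itself had a difference of 0.41 (edgeR adjusted p = 0.011) with TMM scaling, as its own fall was smaller in the GCN5 line. The part of the weaker knockdown in these differences was not tested.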

How the results depend on the processing

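The 10 calls of lower levels after Hsf1 knockdown in the LacZ line kept their direction under every alternative run. With spike-in scaling 2 remained called when the fit held the compared groups alone and 2 to 10 when 1 library was left out. Over all genes, the spike-in calls of lower levels numbered 72 and 95 to 3235 in those fits, against 735 with all 12 libraries. With TMM scaling 10 remained called throughout. For the GCN5 against the LacZ line under siHsf1, the count of 2 became 10 with TMM scaling or with DESeq2 and its own size factors, 3 (Fbl added) with DESeq2 and spike-in size factors, 1 with no filter on low counts, 1 with the compared groups alone and 0 to 7 when 1 library was left out. For the interaction, the count of 0 became 10 with TMM scaling, 10 with DESeq2 and its own size factors, 1 (Dkc1) with all 92 ERCC transcripts, 1 (Dkc1) with DESeq2 and spike-in size factors, and 0 to 7 when 1 library was left out. With TMM scaling the count of 0 became 0 to 1 when 1 library was left out, both between the lines under siControl and for siHsf1 GCN5 against siControl LacZ; in each case the 1 came without siControl LacZ replicate 3. The count of 3 promoters with CACGCG became 0 in the 250 bases before the start alone, since all 3 sites lie after it. Calls over all genes moved as well. For the GCN5 against the LacZ line under siHsf1, 2419 were higher with DESeq2 and its own size factors. With DESeq2 and spike-in size factors 202 were, with no filter 189 and with the compared groups alone 152, against 222 with edgeR and spike-in scaling. Interaction calls were 1154 and 11 with these 2 DESeq2 settings and 30 with all 92 ERCC transcripts, against 21. Causes of the other changes were not tested.

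Deviations of same-numbered libraries from their group means had an r across genes of -0.056 to 0.09 over 18 pairs, below the limit set for pairing, although 9 of 12 libraries had their highest mean r to their own number in the other groups, a hint from the data and not the design. This r cannot see a shift shared by all genes of a library, and the ratio of spike-in to TMM library size was lowest in replicate 1 in 4 of 4 groups; what the numbers mark is not stated. With the replicate number as a block and spike-in scaling, 10 of 10 were called for the interaction, against 0 without it. Over all tested genes 745 were called higher there, against 21 without it. For the GCN5 against the LacZ line under siHsf1 the block gave 9, against 2, where 798 of all genes were called higher, against 222. It gave 10 for knockdown in the LacZ line on either scale, where 3369 genes were called lower with spike-in and 2448 with TMM scaling. Without the block those were 735 and 2373. For siHsf1 GCN5 against siControl LacZ it gave 1 (Ruvbl2) with spike-in scaling, where 2013 genes were called lower, against 163. Between lines under siControl it gave 1 (Nop56) with TMM scaling, where 553 genes were called lower, against 506.

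Signs turned for uncalled log2 fold changes near 0, and the cause was not tested. For knockdown in the GCN5 line the value was 0.03 for Nop56, 0.02 for Nop58 and 0.06 for Naf1 with TMM scaling; 0.02, 0.01 and 0.02 for these genes with the replicate block; and 0.03, 0.02 and 0.06 for them and 0.00011 for Fbl with DESeq2 and its own size factors. For the lines under siControl it was 0.02 for Gar1, 0.02 for Nhp2, 0.24 for Nop10 and 0.03 for Ruvbl1 with TMM scaling, and 0.02, 0.02, 0.24 and 0.02 for them with DESeq2 and its own size factors. When 1 library was left out of the GCN5-line knockdown, spike-in values ran from -0.17 to 0.16 for Fbl, -0.14 to 0.17 for Nop56, -0.13 to 0.14 for Nop58, -0.09 to 0.23 for Dkc1, -0.24 to 0.06 for Gar1, -0.2 to 0.21 for Naf1, -0.2 to 0.02 for Ruvbl1 and -0.21 to 0.13 for Ruvbl2, and TMM values from -0.04 to 0.05 for Fbl, -0.03 to 0.06 for Nop58, -0.07 to 0.03 for Gar1, -0.14 to 0.18 for Naf1 and -0.05 to 0.01 for Ruvbl2. For the lines under siControl they ran from -0.28 to 0.02 for Nop10 with spike-in scaling, and with TMM scaling from -0.08 to 0.01 for Fbl, -0.04 to 0.11 for Gar1, -0.02 to 0.12 for Nhp2 and -0.03 to 0.08 for Ruvbl1 (-0.01 without siControl GCN5 replicate 2). For siHsf1 GCN5 against siControl LacZ with TMM scaling they ran from -0.09 to 0.01 for Fbl (0.003 without siHsf1 GCN5 replicate 3), -0.06 to 0.005 for Dkc1, -0.07 to 0.08 for Gar1, -0.1 to 0.001 for Nop10, -0.22 to 0.09 for Naf1 (0.04 without siHsf1 GCN5 replicate 1) and -0.11 to 0.0049 for Ruvbl1.

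The GCN5 libraries were shallower than the LacZ libraries, and Naf1 rests there on 94 to 154 counts. Spike-in scaling carries the spread of the spike-in itself, with a biological coefficient of variation of 0.274 against 0.089 with TMM scaling, and TMM scaling cannot see a change shared by most genes. Peaks are 1 list per genotype, with no replicate error.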
